A study of Mus musculus with 4 samples.

Results

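The genes described here are feedback inhibitors and outputs of the ERK pathway in cultured mouse keratinocytes, the epithelial cells of the epidermis. They are the dual specificity phosphatases Dusp6, Dusp1, Dusp2, Dusp4 and Dusp5, the Sprouty family genes Spry1, Spred1 and Spred2, the ETS transcription factor gene Etv4, and Phlda1. They were chosen as every probe set whose platform annotation carried one of these 10 symbols. In all, 11 of the 22626 probe sets on the array did so, and they read 8 of the 10 genes. No probe set used here named Dusp4 or Dusp5, so no intensity of these 2 genes was analysed here. Dusp5 enters below only through its promoter sequence. The genes were picked with their values on these arrays known, so what follows describes those values and supports nothing about the choice.

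ERK kinases carry signals from receptors such as the EGF and FGF receptors through Ras, Raf and MEK to the nucleus. Active ERK switches on genes whose products then turn the same pathway down. Dual specificity phosphatases remove the activating phosphates from MAP kinases, and Sprouty and Spred proteins act further upstream, at the step from receptor and Ras to Raf. In the epidermis the pathway is known for its part in keratinocyte proliferation, migration and wound repair.

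RNA came from primary tail skin keratinocytes of C57BL/6 mice with a floxed Prdm1 gene, which encodes the transcriptional repressor Blimp-1, and was read on the Affymetrix Mouse Expression Array 430A. Cells of all 4 groups carried the floxed gene. CKO cells also had CreER, a Cre recombinase that 4-hydroxytamoxifen (4OHT) activates, and control cells had no CreER. The groups were CKO cells with 4OHT, CKO cells with the solvent ethanol (EtOH), control cells with 4OHT and control cells with EtOH, each given from day 1 to day 3 of a culture that was collected on day 5. The promoter that drives CreER, the age of the mice, and whether a culture held cells of 1 or several mice were not stated in the labels. By their labels the 2 genotypes came from different mice, so genotype and animal cannot be told apart.

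Each group had 1 array, so no difference has a replicate check or a test. Levels are given as linear RMA intensity, a unit of array brightness that is comparable between arrays for 1 probe set and not between probe sets, and differences are on the log2 scale. A gene is counted as "higher" or "lower" from 2-fold on. The 4 arrays had medians of 19.95 to 20.22 units, and on at least 1 of them 7461 named genes came up to 20.04 units, the median of the whole table. The 8 genes with a probe set were all among them. Dusp6 and Dusp2 passed this level through the CKO 4OHT array alone, Dusp2 narrowly, with 20.2 intensity units.

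The targeted gene Prdm1 had an intensity of 6.43 in CKO 4OHT, 17.0 in CKO EtOH, 52.4 in control 4OHT and 20.7 in control EtOH. Its lowest value was thus that of the culture labelled as having both CreER and inducer. On that array each of the 8 genes had its highest value, read by its brightest probe set. The labels do not say which part of Prdm1 is floxed, and its probe set may lie outside that part. All 8 keratinocyte markers (Krt5, Krt14, Krt6a, Trp63, Itga6, Itgb4, Cdh1 and Dsp) reached the table median, and their summed intensity was 17538.7 to 17911.1 on the 4 arrays. Krt14, Krt6a and Krt5 gave most of that sum, so it says little about the dimmer markers. Itgb4 read 551 in CKO 4OHT and 315 to 391 elsewhere, and Cdh1 read 238 in CKO 4OHT and 245 to 350 elsewhere. None of the 8 markers differed 2-fold between CKO 4OHT and CKO EtOH or control 4OHT. The 8 fibroblast markers summed to 86.3 in CKO 4OHT and to between 78.8 and 83.1 on the other arrays, with 1 of 8 reaching the median. Within that list Vim, the intermediate filament vimentin, was 16.1 in CKO 4OHT and 8.47 to 8.77 elsewhere, while the collagen genes Col1a1 and Col3a1 were no higher than 7.90 on any array. The other collagen gene of the list, Col1a2 (11.8 to 14.7 over the 4 arrays), and Dcn, the proteoglycan decorin (21.6 to 26.1), had CKO 4OHT within the range of the other arrays, at 13.1 and 22.6. The 6 melanocyte markers summed to 146 in CKO 4OHT and 119 to 129 elsewhere, with Dct at 40.3 in CKO 4OHT and 26.5 to 27.5 elsewhere. Leukocyte markers (1 of 8 at the median, sums of 88.5 to 94.8) and endothelial markers (0 of 6, sums of 39.5 to 49.6) had CKO 4OHT within the range of the other arrays. The part of Vim and Dct in the results below was not tested. In RNA from a whole culture, more cells that express a gene and more RNA per cell cannot be told apart.

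Promoter sequences are shown for the phosphatase gene with the widest difference, Dusp6, for Dusp1, and for the Sprouty family genes Spry1 and Spred1, because these stand for the different patterns described below. They are the 250 bases before the annotated transcription start in RefSeq (GRCm38.p6), 5′ to 3′ on the gene's own strand. A promoter was found for 7 of the 10 genes, and none was printed for Dusp4, Phlda1 or Etv4. Capitals mark matches on either strand to the AP-1 site TGANTCA, the core TGACG of the cyclic AMP response element and the ETS site CGGAAG. They also mark the CArG box of serum response factor and GNGAAAG, a loose form of part of the site known for Blimp-1 in lymphocytes. N stands for any base, so a GNGAAAG match need not be a Blimp-1 site.
Dusp6, chr10:99262981-99263230, + strand: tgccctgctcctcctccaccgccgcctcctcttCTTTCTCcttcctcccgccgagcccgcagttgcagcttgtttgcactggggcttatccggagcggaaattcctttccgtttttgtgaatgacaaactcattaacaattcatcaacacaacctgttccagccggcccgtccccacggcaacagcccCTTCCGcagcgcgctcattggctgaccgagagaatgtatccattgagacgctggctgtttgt
Dusp1, chr17:26508473-26508722, - strand: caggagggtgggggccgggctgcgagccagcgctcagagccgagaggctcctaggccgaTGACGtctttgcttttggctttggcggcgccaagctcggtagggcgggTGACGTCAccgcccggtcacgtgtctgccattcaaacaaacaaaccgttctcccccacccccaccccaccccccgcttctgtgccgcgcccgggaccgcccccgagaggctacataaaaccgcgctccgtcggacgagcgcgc
Spry1, chr3:37639697-37639946, + strand: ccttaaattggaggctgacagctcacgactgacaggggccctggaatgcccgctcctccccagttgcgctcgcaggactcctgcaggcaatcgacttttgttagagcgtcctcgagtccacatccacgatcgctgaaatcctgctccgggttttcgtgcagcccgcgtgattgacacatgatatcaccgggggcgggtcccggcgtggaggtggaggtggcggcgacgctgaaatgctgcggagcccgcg
Spred1, chr2:117120821-117121070, + strand: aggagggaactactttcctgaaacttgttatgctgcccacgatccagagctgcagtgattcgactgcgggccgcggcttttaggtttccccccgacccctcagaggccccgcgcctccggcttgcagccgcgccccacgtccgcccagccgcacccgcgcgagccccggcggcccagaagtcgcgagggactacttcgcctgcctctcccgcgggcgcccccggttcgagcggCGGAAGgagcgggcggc

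The letters differed from gene to gene. The Dusp6 window held 1 ETS match and 1 GNGAAAG match. The Dusp1 window held 3 TGACG matches, of which 2 overlap as a palindrome. The Spred1 window held 1 ETS match, and the Spry1 window held none of the motifs searched. Over the 7 genes with a window, TGACG was found in 3 (Dusp1, Dusp5 and Spred2), CGGAAG in 3 (Dusp6, Spred1 and Spred2), GNGAAAG in 2 (Dusp6 and Dusp5), the CArG box in 1 (Dusp5) and TGANTCA in 0. Among all 32851 promoter windows of this length in the table the shares were 17.8% for TGACG, 13.6% for CGGAAG, 19.4% for GNGAAAG, 1.47% for the CArG box and 6.75% for TGANTCA. G and C made up 56% to 70.8% of the letters in the 7 windows, beside a median of 52.4% over all windows. These shares are therefore not matched for base content. A match of letters is a description of the window and does not show that a factor binds there.

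Among the phosphatase genes the differences ranged widely, with Dusp6 at the top and Dusp2 at the bottom. Dusp6 encodes a cytoplasmic phosphatase that prefers ERK over the other MAP kinases. Its probe set read 108 intensity units in CKO 4OHT, 12.5 in CKO EtOH, 9.75 in control 4OHT and 10.03 in control EtOH. The CKO 4OHT array stood alone, and the other 3 values lay below the table median and within 0.36 log2 of each other. The log2 difference was 3.12 to CKO EtOH and 3.47 to control 4OHT, the 8th and the 6th highest of the 7461 measured genes. Because the lower values are dim, these folds are imprecise: with 16 units added before the log, the same differences were 2.13 and 2.27.

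Dusp1 encodes a nuclear phosphatase that acts on p38 and JNK as well as on ERK and is itself an immediate early gene. It read 273 in CKO 4OHT, 155 in CKO EtOH, 159 in control 4OHT and 181 in control EtOH. It was highest in CKO 4OHT by 1.51-fold over the next array, and the other 3 arrays were close together. The differences of 0.82 to CKO EtOH and 0.78 to control 4OHT stayed under 2-fold.

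Dusp2, a nuclear phosphatase known best from activated lymphocytes, read 20.2 in CKO 4OHT, 11.6 in CKO EtOH, 17.6 in control 4OHT and 17.2 in control EtOH. Here the array that stood apart was CKO EtOH, at the low end. The difference of CKO 4OHT was 0.80 to CKO EtOH and 0.20 to control 4OHT. The 4 values lie near or below the table median, where differences are least certain.

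Among the Sprouty family genes, Spry1 encodes a membrane-associated inhibitor of receptor tyrosine kinase signalling. It read 134 in CKO 4OHT, 55.4 in CKO EtOH, 66.7 in control 4OHT and 58.9 in control EtOH. CKO 4OHT was the highest array and the other 3 spanned 0.27 log2. The difference was 1.28 to CKO EtOH and 1.01 to control 4OHT, and the second lay at the 2-fold limit (0.96 after quantile normalization).

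Spred1 and Spred2 encode related proteins that bring the Ras GTPase activator neurofibromin to the membrane and so damp the step from Ras to Raf. Spred1 (1423160_at) read 72.4 in CKO 4OHT, 39.7 in CKO EtOH, 31.8 in control 4OHT and 53.9 in control EtOH. Spred2 (1434403_at) read 96.5 in CKO 4OHT, 64.2 in CKO EtOH, 53.9 in control 4OHT and 85.2 in control EtOH. For both genes control EtOH came next to CKO 4OHT, then CKO EtOH, with control 4OHT lowest, an order found in 692 of the 7461 measured genes (9.27%).

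CKO 4OHT exceeded control EtOH by 1.34-fold for Spred1 and 1.13-fold for Spred2. The wider gaps were to the other arrays: 0.87 and 0.59 log2 to CKO EtOH, and 1.19 and 0.84 to control 4OHT. Among the 3 arrays other than CKO 4OHT, Spred1 spanned 0.76 log2 and Spred2 0.66, against 0.11 for Phlda1 and a median of 0.26 over all measured genes.

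Further probe sets gave a mixed picture for these 2 genes. For Spred1, 1423161_s_at read 15.7 in CKO 4OHT, 7.48 in CKO EtOH, 6.14 in control 4OHT and 9.60 in control EtOH, and 1423162_s_at read 8.35 in CKO 4OHT, 5.95 in CKO EtOH and 6.90 in control EtOH, with control 4OHT lowest. Both were dim and put the 4 arrays in the same order as the main probe set. For Spred2, 1423001_at read 21.6 in CKO 4OHT, 21.7 in CKO EtOH, 20.5 in control 4OHT and 16.7 in control EtOH. It did not share the pattern of the brighter Spred2 probe set: CKO 4OHT and CKO EtOH differed by -0.01 log2, and control EtOH was the lowest array. The 2 Spred2 probe sets therefore disagree, and the Spred2 values above hold for the brighter one.

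**Figure D1:**
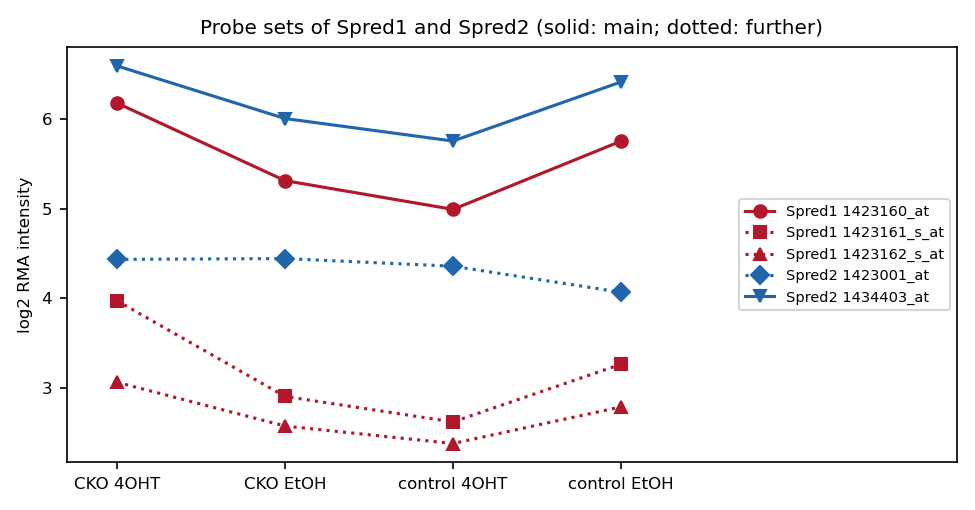
Log2 RMA intensity of the 5 probe sets of Spred1 (red) and Spred2 (blue) on the 4 arrays; solid lines mark the main probe set of each gene, dotted lines the further ones. The 3 Spred1 probe sets and 1434403_at of Spred2 put the arrays in the same order, with control 4OHT lowest, and 1423001_at of Spred2 does not.

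Etv4 encodes an ETS family transcription factor of the PEA3 group that is induced by FGF and EGF signalling in many epithelia. It read 63.2 in CKO 4OHT, 25.3 in CKO EtOH, 26.6 in control 4OHT and 23.4 in control EtOH. CKO 4OHT was 2.37-fold above the next array, and the other 3 spanned 0.19 log2. The difference was 1.32 to CKO EtOH and 1.25 to control 4OHT, and both fell under 2-fold with 16 units added before the log (0.94 and 0.89).

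Phlda1 encodes a pleckstrin homology-like domain protein that is induced by growth factors and used as a readout of ERK activity. It read 432 in CKO 4OHT, 48.2 in CKO EtOH, 51.3 in control 4OHT and 47.5 in control EtOH. The gap to the next array was 8.42-fold, and the other 3 arrays were the closest together of the 8 genes. Unlike Dusp6, Phlda1 lay above the table median on every array. Its differences of 3.16 to CKO EtOH and 3.07 to control 4OHT both ranked 7th among the measured genes.

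**Figure D2:**
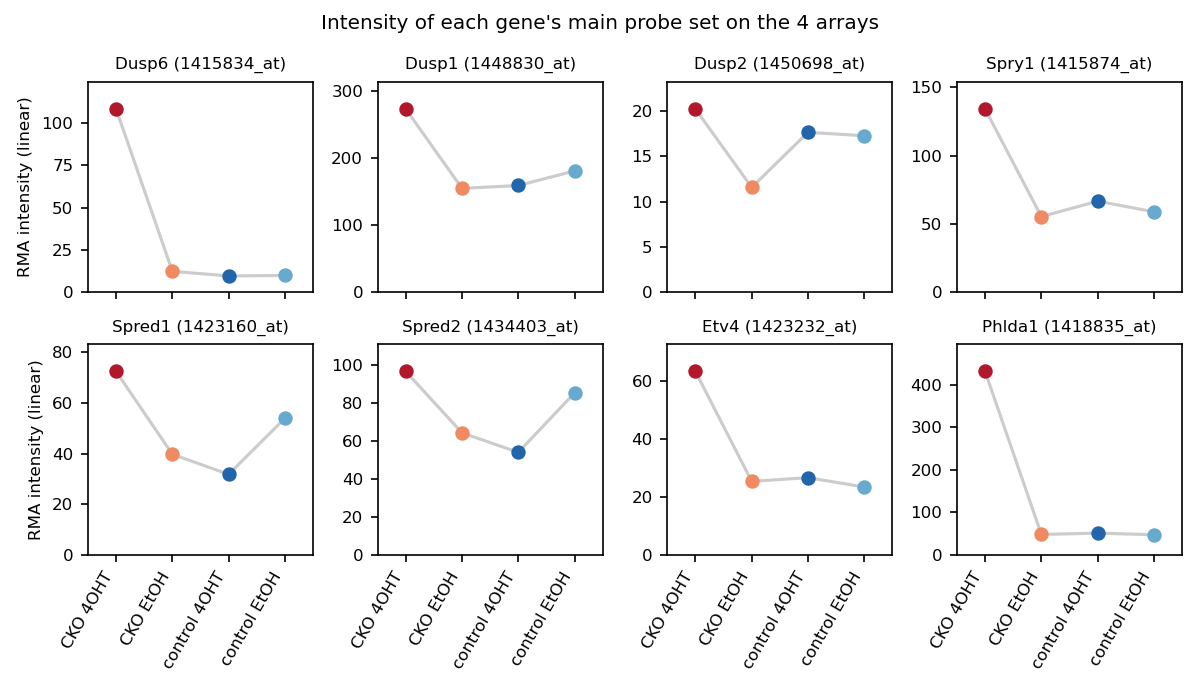
RMA intensity (linear axis from 0, a separate scale per gene) of the main probe set of the 8 genes on the 4 arrays, 1 point per array. Each gene is highest in CKO 4OHT, with a gap of 8.68-fold for Dusp6 and 8.42-fold for Phlda1 over the next array and of 1.13-fold for Spred2.

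With CreER on both sides, CKO 4OHT against CKO EtOH had 4 of the 8 genes higher (Dusp6, Phlda1, Spry1 and Etv4) and 0 lower. Of all 7461 measured genes 1.78% were higher and 1.86% lower. The median difference of the 8 genes was 1.07, beside 0.01 for all measured genes, and the smallest was 0.59, for Spred2. With 4OHT on both sides, CKO 4OHT against control 4OHT had 5 of 8 higher (the same 4 and Spred1) and 0 lower, where 1.45% of all measured genes were higher and 2.24% lower. The median was 1.10, beside 0.01 for all measured genes, and the smallest was 0.20, for Dusp2. Both comparisons use the CKO 4OHT array, so they are not separate evidence. In both, the level filter fixed the direction of Dusp6 and Dusp2, which counted as measured through that array alone.

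Of the 8 genes, 8 had their highest value in CKO 4OHT by their brightest probe set, as did 31.6% of the measured genes. Dusp6 and Dusp2 counted as measured through the CKO 4OHT array alone, which fixed this for these 2 of the 8. For 4 of them, Dusp6, Phlda1, Etv4 and Spry1, the gap to the next array was at least 2-fold, as for 0.751% of the measured genes, and 0 of the 8 lay that far below, as for 1.09%. None of the 8 was at least 2-fold above or below the rest on another array, where the shares of all genes were 0.281% above and 0.0268% below in control 4OHT and 0% each in CKO EtOH and control EtOH.

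The drug without CreER, read as control 4OHT with control EtOH, had 0 of 8 genes higher and 0 lower, where 1.27% of the measured genes were higher and 0.241% lower. Of the 8 genes, 6 differed by little, between -0.18 for Dusp1 and 0.19 for Etv4. Spred1 (-0.76) and Spred2 (-0.66) were lower in control 4OHT by 1.70-fold and 1.58-fold, the 82nd and the 191st lowest of the measured genes, and Spred2's further probe set differed by 0.29 in the other direction. The median of the 8 genes was -0.00 and that of all genes -0.04.

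CreER without the drug, CKO EtOH with control EtOH, also had 0 of 8 higher and 0 lower, where 0.0536% of the measured genes were higher and 0% lower. The lowest difference was that of Dusp2 (-0.58), followed by Spred1 (-0.44) and Spred2 (-0.41), and the highest was that of Dusp6 (0.32, at levels of 12.5 and 10.03). These 2 comparisons share the control EtOH array.

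**Figure D3:**
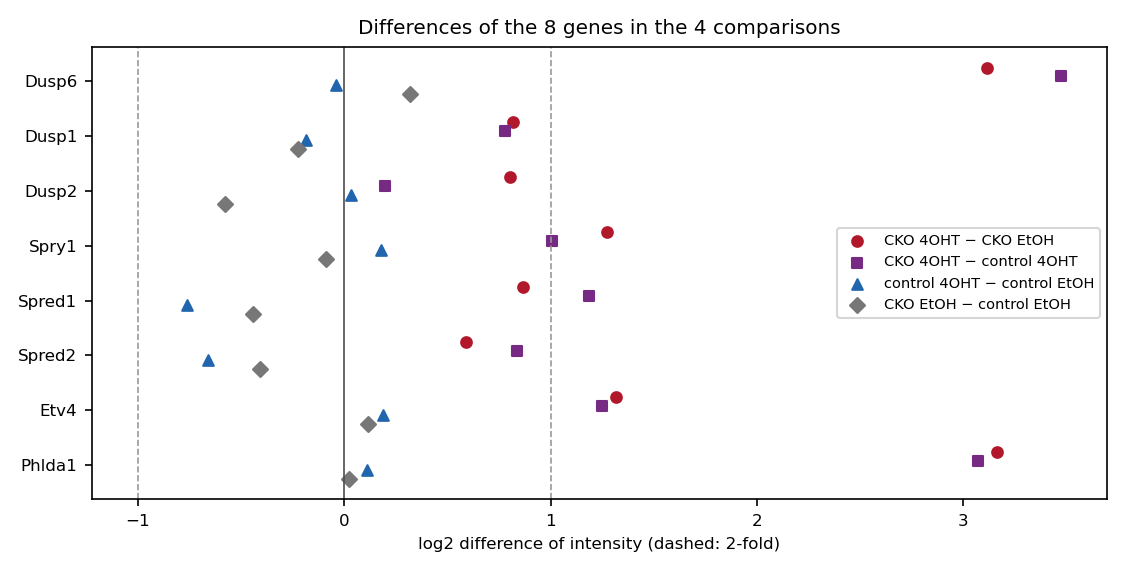
Log2 difference of each of the 8 genes (rows) in the 4 comparisons (symbols), with dashed lines at 2-fold. Dusp6 and Phlda1 lie near 3 in both comparisons of CKO 4OHT, the other genes between 0.20 and 1.32, and Spred1 and Spred2 are the lowest in control 4OHT against control EtOH.

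The difference of the drug effects is the 4OHT difference in CKO cells minus that in control cells. Read by the brightest probe set of each gene, it was positive for all 8 genes and at least 1 for 7 of them. Among all measured genes 2.75% reached 1 and 2.9% reached -1. It was 3.16 for Dusp6, 3.05 for Phlda1, 1.63 for Spred1, 1.25 for Spred2, 1.13 for Etv4, 1.10 for Spry1, 1.00 for Dusp1 and 0.77 for Dusp2. Spred1 and Spred2 thus came before Etv4 and Spry1 in this measure, because their control cells had lower values with the drug. For Spred2 it was 0.47 as the mean of both probe sets and -0.30 for the further probe set alone. For Dusp1 it was 0.93 after quantile normalization. Of the 8 keratinocyte markers, 1 reached 1 in this measure, Itgb4 at 1.11, and 0 reached -1.

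Other genes of the same families were read from lists, with the 10 genes above left out of each. Of all measured genes 1.78% were higher and 1.86% lower than in CKO EtOH, and 1.45% and 2.24% than in control 4OHT. At these shares a short list can hold 0 genes past 2-fold, so a count of 0 does not set a list apart. Of 10 measured further dual specificity phosphatases, 0 were higher and 0 lower in either comparison of CKO 4OHT, with medians of 0.07 to CKO EtOH and 0.16 to control 4OHT. The 2 probe sets of the highest mean intensity, which does not rank the genes' levels, read Dusp11 (-0.15 and -0.04), an RNA phosphatase, and Dusp7 (0.66 and 0.85), a close relative of Dusp6 that also acts on ERK. Dusp7 read 280 in CKO 4OHT, 177 in CKO EtOH, 155 in control 4OHT and 190 in control EtOH. Dusp10, which acts on JNK and p38, was at 0.84 and 0.67, and Dusp14 was at 0.07 to CKO EtOH and -0.71 to control 4OHT, where it had its highest intensity of the 4 arrays. The further Sprouty genes with a probe set, Spry2 and Spry4, stayed under the table median on every array, at no more than 17.3 and 5.48.

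Of 11 measured further ETS factors, 0 were higher and 1 was lower in both comparisons, with medians of 0.03 and 0.01. The lower one was Ets2, a transcription factor that ERK phosphorylates, at 360 in CKO 4OHT, 794 in CKO EtOH, 878 in control 4OHT and 686 in control EtOH. Its differences of -1.14 and -1.29 ran opposite to those of Etv4. Etv5, the PEA3 relative of Etv4, was at 7.22 in CKO 4OHT and no more than 4.88 elsewhere, near the floor of the arrays.

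Of 12 measured further feedback inhibitors of receptors and Ras, 0 were higher and 2 were lower in both comparisons, with medians of 0.23 and 0.28. The lower genes were Socs3, a suppressor of cytokine signalling (-1.03 and -1.01), and Erbin, an ErbB2-binding scaffold (-1.15 and -1.11). Both fell under 2-fold as means of all their probe sets, Socs3 at -0.76 and -0.73 and Erbin at -0.71 and -0.69.

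Of 18 growth factor ligands listed, 16 had a probe set and 8 were measured. Of these 8, 4 were higher in CKO 4OHT than in CKO EtOH and 1 was lower, with a median of 0.41. Against control 4OHT, 1 was higher and 1 lower, with a median of 0.46. These medians rest on the level filter: without it they were 0.13 and -0.11, and as means of probe sets 0.19 and 0.21. The higher genes were Hbegf, Epgn, Tgfa (1.20, and 0.55 as the mean of its probe sets) and Ereg to CKO EtOH, and Hbegf alone to control 4OHT. Ereg read 25.02 in CKO 4OHT, 12.0 in CKO EtOH, 14.4 in control 4OHT and 9.67 in control EtOH, so it reached the table median in CKO 4OHT alone, and its difference of 1.06 to CKO EtOH was 0.55 with 16 units added before the log. The lower one was Fgf13, an intracellular relative of the FGFs (-2.24 and -1.95, and -1.26 and -1.03 as means of its probe sets). Hbegf, which activates the EGF receptor, read 233 in CKO 4OHT, 66.6 in CKO EtOH, 52.6 in control 4OHT and 67.1 in control EtOH. Among 10 receptor tyrosine kinases, Epha2, an ephrin receptor, was the 1 higher gene in both comparisons (1.51 and 1.37). Fgfr3 (-1.41 and -1.24) was lower in both, and Fgfr2 was lower than in CKO EtOH (-1.53) and at -0.95 to control 4OHT. As the mean of its probe sets Fgfr3 was at -0.87 and -0.92. Medians of the receptors were -0.04 and -0.31, and the EGF receptor gene Egfr was at -0.26 and -0.37.

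The signal chain between receptor and ERK showed no measured member past 2-fold, which is near the shares of all measured genes given above. Of 24 genes listed for it, 17 had a probe set. Of 16 measured adaptors, Ras proteins and ERK cascade kinases, 0 were higher and 0 lower in both comparisons, with medians of 0.07 and 0.00. The 2 genes of the highest mean intensity, the phosphatase gene Ptpn11 and the Ras relative Rras, were at -0.01 and 0.19 and at -0.36 and -0.58. Of 6 measured JNK and p38 pathway kinases, 0 were higher and 0 lower, with medians of 0.12 and 0.18, and the 2 of the highest mean intensity were Mapk13 (0.60 and 0.25) and Map2k3 (0.55 and 0.41).

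Of 21 measured further ERK target genes, 6 were higher and 0 lower in CKO 4OHT than in CKO EtOH, with a median of 0.78, and 6 were higher and 1 lower than in control 4OHT, with a median of 0.60. The medians of all measured genes were 0.01 and 0.01. Of the 21, Fosl1 (59.4 in CKO 4OHT and 17.1 to 17.5 elsewhere) and Plaur (22.6 and 9.56 to 12.7) counted as measured through the CKO 4OHT array alone, which fixed their direction. Higher in both were Hmga2 (4.08 and 4.37, and 3.27 and 3.56 without its _s_at probe set), Fos (2.50 and 2.41), Fosl1 (1.79 and 1.78), Ccnd1 (1.28 and 1.75) and Lif, a cytokine of the interleukin-6 family. Lif read 71.2 in CKO 4OHT, 25.2 in CKO EtOH, 24.9 in control 4OHT and 22.3 in control EtOH, and its differences were 0.84 and 0.65 as means of all its probe sets. Ier3, an early response gene, passed 2-fold to CKO EtOH (1.27) and was at 0.96 to control 4OHT, and Myc was at 0.96 and 1.22. The lower gene was Egr1, an immediate early zinc finger factor, at 40.0 in CKO 4OHT, 75.4 in CKO EtOH, 80.5 in control 4OHT and 55.4 in control EtOH. Egr1 (-0.91 and -1.01) and Jun (-0.76 and -0.76) were thus below the other arrays where Fos, Dusp6 and Phlda1 were above them, and Egr1 was at -0.99 to control 4OHT after median centring.

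**Figure D4:**
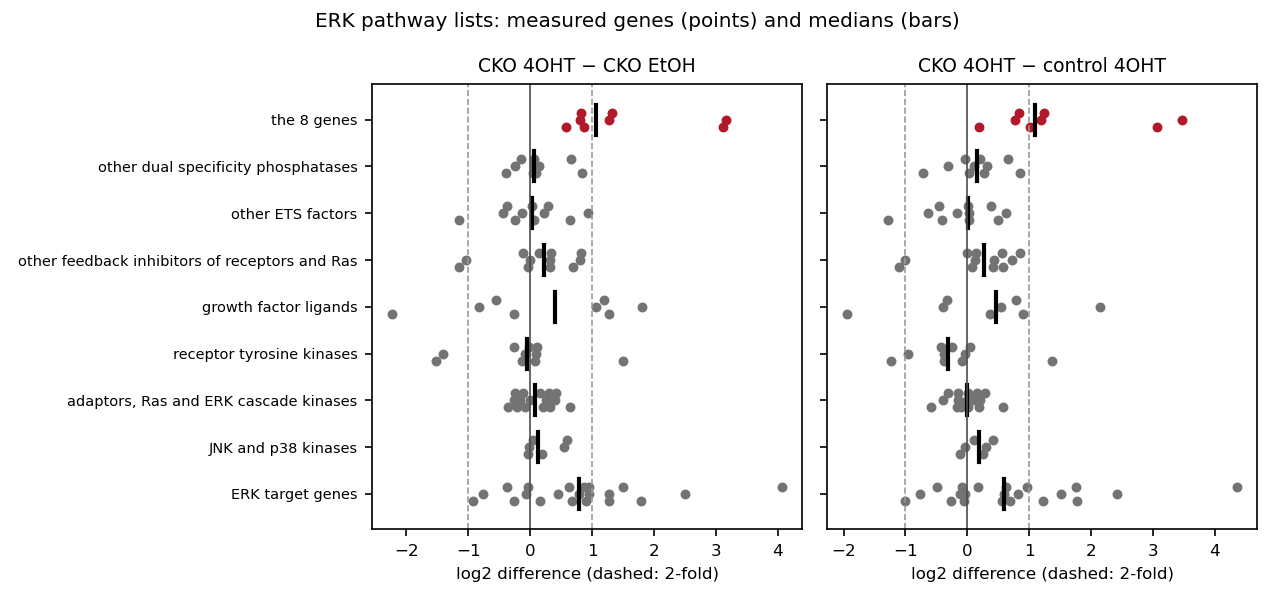
Log2 differences of the 8 genes (red) and of the measured members of 8 further ERK pathway lists (grey, the 8 genes left out) in CKO 4OHT against CKO EtOH (left) and control 4OHT (right), with black bars at the medians and dashed lines at 2-fold. The 16 adaptors, Ras proteins and cascade kinases lie within 2-fold, and the ERK target list has medians of 0.78 and 0.60.

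The genes whose pattern lay nearest to each gene that stood at least 2-fold above all other arrays were found from the log2 values on the 4 arrays, centred per gene, by root mean square distance over these 4 values. The nearest to Dusp6 was Phlda1 (0.18 log2), and the nearest to Phlda1 was Dusp6. After it came Cxcl1 (0.21), Cxcl5 (0.30), Hmga2 (0.38) and Fos (0.39) for Dusp6, and Cxcl5 (0.22), Fos (0.27), Ifi209 (0.28) and Mal (0.34) for Phlda1. The nearest to Spry1 were Tnfrsf23 (0.03), Epgn (0.05), Kcnn4 (0.05), Dhrs1 (0.05) and Bid (0.07). The nearest to Etv4 were Bid (0.05), Il1a (0.06), Zfand2a (0.08), Igfbp7 (0.08) and Ikbke (0.09). Epgn, a ligand of the EGF receptor, read 842 in CKO 4OHT, 347 in CKO EtOH, 452 in control 4OHT and 393 in control EtOH, and so followed the order of Spry1. Over 4 arrays, a profile has few values, and the distances are a description.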

How the data were processed

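The authors deposited linear intensity values (2.66 to 7167 units), 1 for each probe set on each array. Per the submitters' processing notes it comes from RMA, which corrects background, normalizes between arrays and summarises probes; no version is stated. RMA makes array distributions alike, so a shift of most transcripts would be lost, and it compresses dim differences. The table holds no detection calls, and 4 arrays limit the precision.

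Log2 was taken with no pseudocount (Python 3.11.15, pandas 2.3.3, numpy 2.4.6). Probe sets were named through GEO's platform annotation: 20380 probe sets named 1 gene, 691 several and 1555 were not listed. A gene was read by its brightest probe set naming it alone and counted as measured when its highest value reached the table median. Groups came from the source labels. With 1 array per group no test was run. Counting steps were tested on simulated data. Motifs were searched in RefSeq promoters (GRCm38.p6).

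The genes, lists and rules were chosen with earlier results of these data known. Genes named were all 10, Prdm1, markers, list genes past 2-fold or the 2 brightest of a list with none, and the 5 nearest profiles; Etv5, Spry2, Spry4, Dusp7's levels, Dusp10, Dusp14, Plaur, Egfr, Jun and Epgn's levels were singled out after their values were seen. Alternatives were fold limit, level filter, probe set choice, normalization and an offset.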

Additional observations from a re-analysis of the deposited data

Results flagged for a closer look

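For 4 of the 8 genes the 4OHT difference was positive in CKO cells and negative in control cells, as for 28.4% of all measured genes. The difference of the drug effects was 3.16 log2 for Dusp6 (3.12 in CKO cells and -0.04 in control cells), 1.63 for Spred1 (0.87 and -0.76), 1.25 for Spred2 (0.59 and -0.66) and 1.00 for Dusp1 (0.82 and -0.18). With 1 array per group these differences were not tested, and the 4OHT difference of Dusp6 in control cells is close to 0. The further Spred2 probe set had the opposite signs, at -0.01 in CKO cells and 0.29 in control cells.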

How the results depend on the processing

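No paired analysis was possible because each group has 1 array and no test was run. The level filters, both normalizations and both probe set choices moved no count of the 8 genes or of all measured genes by over 1.5 times. Medians of the 8 genes shifted by at most 0.20 log2, which is large beside medians near 0: for CKO EtOH against control EtOH the median was -0.16, and -0.05 as the mean of probe sets and -0.09 with the level filter at 2 times the table median. Without the level filter the growth factor ligand median against control 4OHT turned negative, as given above, and other list medians that changed sign lay between -0.20 and 0.18 on both sides of the change. They moved single genes, among them Spry1, Dusp1, Spred2, Hmga2, Lif, Tgfa, Fgf13, Fgfr3, Erbin, Socs3 and Egr1, as given above. A 1.5-fold limit gave 8 of the 8 genes higher against CKO EtOH (4 at 2-fold) and 2 lower in control 4OHT against control EtOH (0 at 2-fold). It gave 423 higher and 408 lower of all measured genes against CKO EtOH (133 and 139 at 2-fold), 496 and 451 for CKO 4OHT against control 4OHT (108 and 167), 295 and 292 for control 4OHT against control EtOH (95 and 18), and 44 and 56 for CKO EtOH against control EtOH (4 and 0).

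Adding 16 units before the log shrank differences of dim probe sets by its construction. It left 2 of 8 genes higher against control 4OHT (5 without it), 2 at least 2-fold above all other arrays (4), and 4 with a difference of the drug effects of at least 1 (7). Of all measured genes it gave 80 higher and 60 lower against CKO EtOH, 59 and 88 against control 4OHT, 63 and 0 for control 4OHT against control EtOH, and 2 higher for CKO EtOH against control EtOH. No direction past 2-fold reversed under the alternatives run. No median could be given for the further Sprouty and Spred genes, since none reached the table median.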
